A study of Arabidopsis thaliana with 12 samples.

Results

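Seedlings of the *arf2-6* mutant of *Arabidopsis thaliana* were compared with wild-type seedlings in the absence of added auxin, on 6 of the 12 arrays of the study. The comparison was described over the probe sets whose deposited log2 signal lay above the lowest value of the table (a signal of 50) on at least 3 of these 6 arrays, called members here. This held for 13210 of 22810 probe sets. Of these members, 12038 were above the lowest value on all 6 arrays, 7051 were paired with a single gene, 266 with several genes, and 5893 were not listed with a gene. The *arf2-6* control group (arf2-6_control) was the *arf2-6* mutant given ethanol, the solvent of the auxin, and the wild-type control group (WT_control) was Columbia given the same ethanol. Both were light-grown seedlings, cultured in liquid for 7 days in Murashige and Skoog medium (1.5% sucrose) with days of 16 h light and 8 h dark, and the treatment lasted 2 h at 24 °C. *arf2-6* and wild-type seedlings given the natural auxin indole-3-acetic acid (IAA) at 5 µM formed the other groups, arf2-6_IAA and WT_IAA. Each of the 4 groups held 3 one-colour arrays of total RNA. The labels give neither the nature of the *arf2-6* allele nor the number of seedlings or cultures behind an array, so the replicates may be technical, and p-values measure no more than the spread among them.

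Auxin response factors bind auxin response elements in the promoters of auxin-regulated genes. Aux/IAA proteins bind to them and are degraded when auxin is perceived. ARF2 belongs to the group of these factors that act as repressors, and it is known from mutants for restricting the growth of seeds and aerial organs and for promoting senescence and organ shedding. *ARF2* itself (AT5G62000) was paired with no single-gene probe set, so the level of the mutated gene could not be used to check the labels. The comparison asks which transcripts differ in the mutant before auxin is given.

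A pair of control arrays, arf2-6_control array 2 and WT_control array 3, stood apart from the others of their groups. The first principal component of the 6 control arrays (44.3% of the variance) placed them at -26.8 and -25.4, the other arf2-6_control arrays at 15.1 and 13.6, and the other WT_control arrays at 8.83 and 14.7. The second component (30.6%) parted the genotypes, at 19.9, 7.52 and 15.5 on the arf2-6_control arrays and -16.6, -20.7 and -5.61 on the WT_control arrays.

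**Figure D1:**
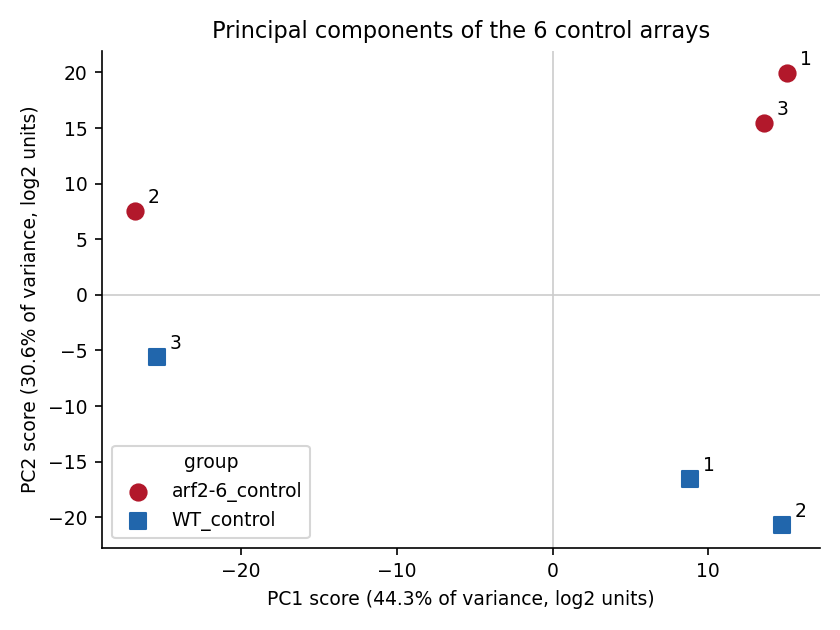
Scores of the 6 control arrays on the first principal component (x axis, 44.3% of the variance) and the second (y axis, 30.6%), computed over 13210 members; circles are arf2-6_control arrays, squares are WT_control arrays, and the digits are replicate numbers. Array 2 of arf2-6_control and array 3 of WT_control lie at the left, and the genotypes part along the y axis.

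Set against the mean of the other arrays of the same group, the deviations of these arrays correlated at 0.638 across the 13210 members, which are probe sets of the same arrays and not independent. On 6245 members (47.3%) both lay beyond the other arrays of their group in the same direction, 3614 upward and 2631 downward. These arrays were picked because they deviate together, so the correlation and this share describe the choice and are not a test of it. The large shared deviations were mostly downward, with 188 members past 1 log2 below and 9 past 1 log2 above. The lowest was *AT5G24690*, at 9.31, 6.20 and 9.15 log2 on arf2-6_control arrays 1, 2 and 3 and at 8.39, 8.71 and 6.76 log2 on the WT_control arrays. *FATB*, which encodes an acyl-ACP thioesterase that releases saturated fatty acids in the plastid, read 9.04, 7.05 and 8.96 log2 in arf2-6_control and 9.04, 8.63 and 7.37 log2 in WT_control. *SEU* (SEUSS), a transcriptional co-regulator in flower development, read 7.68, 5.96 and 7.79 log2 in arf2-6_control and 7.56, 7.54 and 6.26 log2 in WT_control. The 3 genes were low on the same array of each genotype. Among the upward deviations, *AT1G15270* was at 8.87, 10.09 and 8.90 log2 in arf2-6_control and 9.42, 9.09 and 10.18 log2 in WT_control.

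The control probe sets that compare the 3′ with the 5′ end of a transcript moved with these arrays. The 3′ minus 5′ difference of actin was 2.30, 2.46 and 2.06 log2 on the arf2-6_control arrays and 2.12, 1.59 and 2.33 log2 on the WT_control arrays. That of ubiquitin was 1.29, 1.51 and 1.31 log2 in arf2-6_control and 1.28, 1.35 and 1.42 log2 in WT_control, and that of GAPDH was -0.14, 0.12 and 0.04 log2 in arf2-6_control and 0.07, -0.07 and 0.10 log2 in WT_control. In all 3 cases the array that stood apart had the highest value of its group. The part of this difference in the results was not tested. Results are given with all 12 arrays and without both of these arrays, a choice made with earlier results of these data known.

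**Figure D2:**
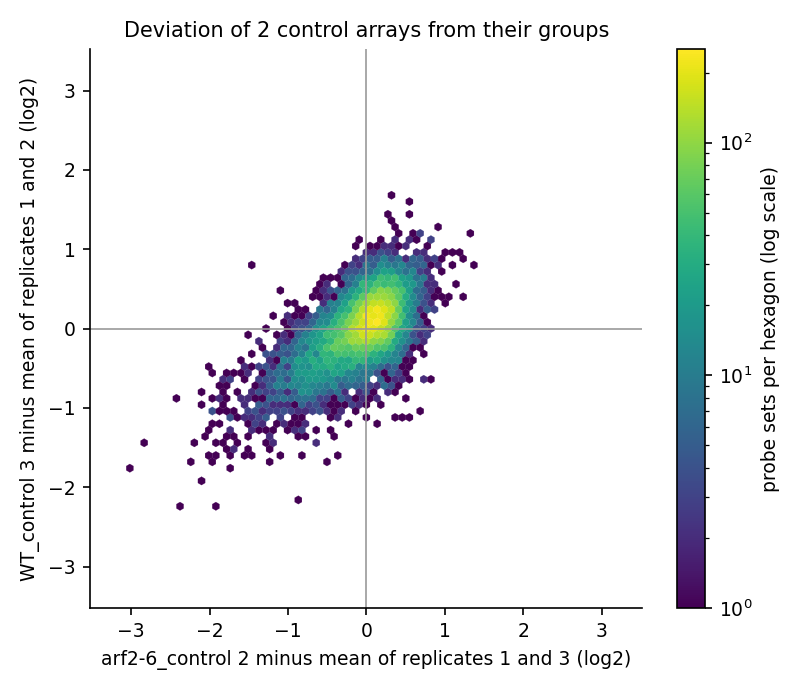
Deviation of arf2-6_control array 2 (x axis) and of WT_control array 3 (y axis) from the mean of the other arrays of their group, in log2 units, for 13210 members binned in hexagons coloured by the number of probe sets on a log scale. The cloud runs along the diagonal (correlation 0.638), with its longest tail at the lower left, where 188 members lie past 1 log2 below on average.

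With all 12 arrays in one limma fit, 122 members were called at an adjusted p under 0.05, 50 higher and 72 lower in *arf2-6*. These calls were 0.858% of the 14215 probe sets fitted, with 0.352% higher and 0.507% lower. Without the pair of arrays 700 members were called, 371 higher and 329 lower, and over all 14084 probe sets fitted the share was 5.06% (2.69% higher and 2.37% lower). Of the 122 calls, 118 were also called without the pair, so 582 calls were found only there. The median within-group SD of the members over the control groups was 0.191 log2 with all arrays and 0.137 log2 without the pair. The arrays left out were picked for standing apart, so a smaller SD, and more calls with it, can follow from that choice alone. Of the 122 calls, 18 were made in each of the 12 fits that left out 1 array, 11 of them of single genes. In the fit of the 6 control arrays alone 2 probe sets were called (0.0144%, with 0.0072% in each direction), *AT2G47780* higher (adjusted p = 0.019) and probe set 247468_at lower.

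Most differences were small. The median difference over all members was 0.02 log2 with an SD of 0.25, and 94.8% of members lay within 0.5 log2 of zero. Past 1 log2 there were 19 members higher and 45 lower, of which 10 and 19 were called. The median size of a called difference was 0.74 log2. All 122 called members had the 3 arf2-6_control values beyond the 3 WT_control values, as did 2019 members in all (15.3%, with 7.78% higher and 7.5% lower). In these whole-seedling samples fewer cells of a type and less RNA per cell cannot be told apart.

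The calls were also set beside the IAA-treated arrays, which the control difference does not use except for the shared estimate of spread. The difference of arf2-6_IAA from WT_IAA had the same sign for 118 of the 122 called members (96.7%), against 75.0% of all members, and 86 were also called there with the same sign, where 8.79% of all probe sets fitted were called. Their median difference, taken along the sign of the control difference, was 0.68 log2 on the IAA arrays and 0.74 log2 on the control arrays. Of the 700 members called without the pair, 677 (96.7%) had the same sign, against 75.4% of all members, and 340 were also called with the same sign in the 12-array fit of the IAA arrays, where the share was 8.79%. The test of the difference between the 2 genotype differences called 16 probe sets (0.113%) in the 12-array limma fit and 0 members. The smallest adjusted p among the members was 0.195. An unadjusted p under 0.05 was found for 405 of the 13210 members and for 520 of the 14215 probe sets fitted, so the members did not stand out. Without the pair it called 3 probe sets (0.0213%), 2 of them members. A p that misses the threshold does not show that the genotype differences are alike with and without IAA.

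Among the single-gene members called higher in *arf2-6* with 12 arrays, 4 lay in a run of genes beside *ARF2* on the chromosome. The gene table holds 51 single-gene probe sets from AT5G61500 to AT5G62460, and 33 of them, for 32 genes, were members. The 10 measured genes from AT5G62030 to AT5G62210, the stretch that follows *ARF2*, were all higher in *arf2-6*, with a median difference of 0.77 log2 (0.27 to 1.29). Of these, 4 rose in the 12-array fit (0.352% of all probe sets fitted rose) and 6 without the pair (2.69%). The 14 probe sets on the other side, from AT5G61500 to AT5G61990, were split 7 and 7, with a median of 0.02 log2 and none called with 12 arrays. The 9 probe sets farther on, from AT5G62280 to AT5G62460, had a median of 0.06 log2, with 6 positive and 3 negative and none called in either fit. The bounds of these stretches were not set in the plan, so the counts and medians within them are descriptions only.

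The largest of these rises was *AT5G62140*, at 7.30, 7.26 and 6.98 log2 in arf2-6_control and 5.70, 5.96 and 6.02 log2 in WT_control. The groups did not overlap, and the difference of 1.29 ± 0.17 log2 (SE, 2.44-fold, limma adjusted p = 0.00894) was 1.31 log2 without the pair. *AT5G62130*, of a family with yeast Per1, which acts in the remodelling of glycolipid anchors of proteins, was at 6.96, 7.11 and 6.93 log2 in arf2-6_control and at 6.07 and 5.99 log2 on WT_control arrays 2 and 3, with array 1 at the lowest value, a difference of 1.10 ± 0.10 log2 (adjusted p = 0.000833). *AT5G62200*, of the embryo-specific protein 3 family, read 9.24, 9.36 and 9.16 log2 in arf2-6_control and 8.49, 8.29 and 8.34 log2 in WT_control, a difference of 0.88 ± 0.11 log2 (adjusted p = 0.00528). *IQD23*, a member of the calmodulin-binding IQ67-domain family, was at 7.10, 7.07 and 7.06 log2 in arf2-6_control and 6.42, 6.29 and 6.28 log2 in WT_control (0.75 ± 0.12 log2, adjusted p = 0.0212). All 4 showed no overlap between genotypes, as did all 122 called members.

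*PRH75*, a DEAD-box RNA helicase, and *AT5G62030*, of the diphthamide synthesis family, were called without the pair only. *PRH75* read 10.08, 9.08 and 10.37 log2 in arf2-6_control and 9.05, 8.94 and 8.36 log2 in WT_control. The difference was 1.06 ± 0.28 log2 with all arrays (adjusted p = 0.105) and 1.23 ± 0.15 log2 without the pair (adjusted p = 0.00465). On the other side of the locus *AT5G61530* was lower in *arf2-6* without the pair (-0.52 ± 0.12 log2, adjusted p = 0.0407) and not called with 12 arrays. The list was drawn by position, with earlier results of these data known.

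**Figure D3:**
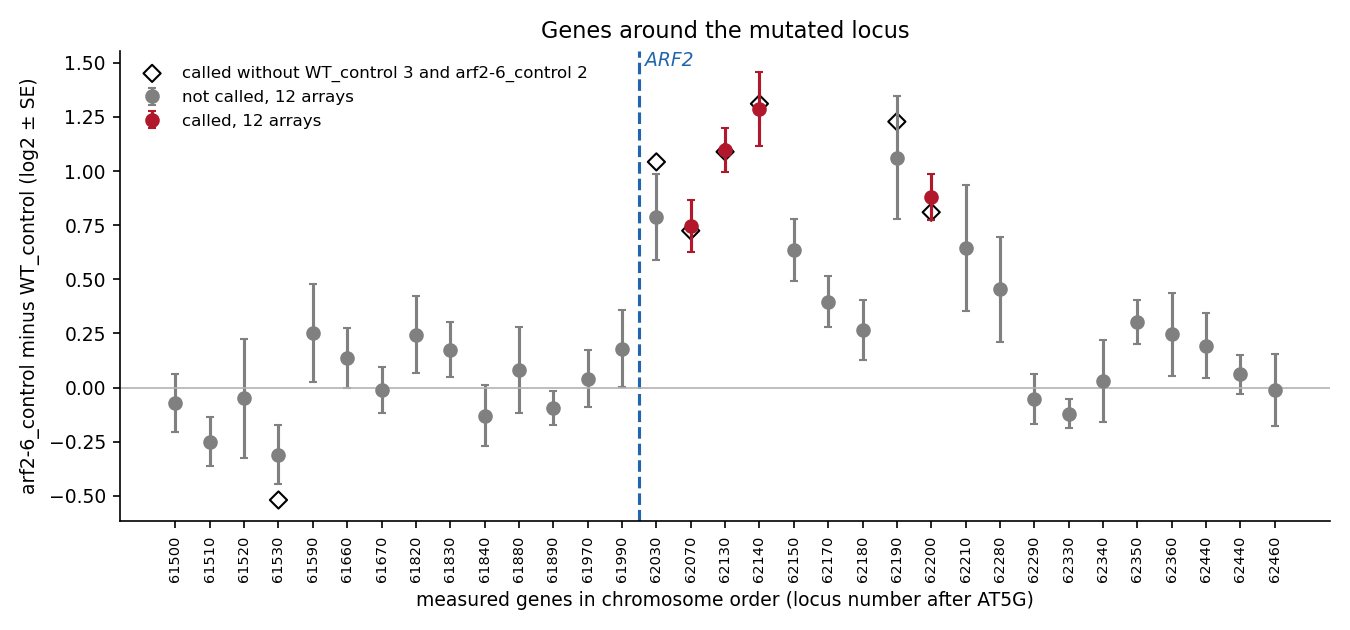
Difference of arf2-6_control from WT_control (y axis, log2, mean difference ± SE of the 12-array fit) for the 33 member probe sets in chromosome order around *ARF2* (x axis, locus number after AT5G), with filled red points for genes called with 12 arrays and open diamonds for the value without the pair of arrays where it was called there. The dashed line marks *ARF2*, and the 10 points to its right, from AT5G62030 to AT5G62210, are all above zero, 4 of them called with 12 arrays.

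With the genes beside *ARF2* included, 31 single-gene members were called higher with 12 arrays, and 182 without the pair. *AT2G43590*, of the chitinase family, whose members cleave chitin, was at 9.19, 9.60 and 9.60 log2 in arf2-6_control and 8.27, 8.12 and 8.22 log2 in WT_control. It rose by 1.26 ± 0.13 log2 (2.39-fold, adjusted p = 0.00297) and was 1.00 log2 higher in arf2-6_IAA than in WT_IAA. *AT2G47780*, of the rubber elongation factor family, known from proteins that coat lipid droplets, was at 6.77, 6.77 and 6.79 log2 in arf2-6_control and at 5.71 log2 on 1 WT_control array and the lowest value on the other 2. Its difference was 1.11 ± 0.16 log2 (adjusted p = 0.0131). *AT2G29290*, of the tropinone reductase family of short-chain dehydrogenases, read 8.54, 8.55 and 8.73 log2 in arf2-6_control and 7.73, 7.32 and 7.84 log2 in WT_control (0.98 ± 0.15 log2, adjusted p = 0.0163). *AT1G67910* was 0.93 log2 higher and *AT5G07860*, of the BAHD acyltransferase family, 0.77 log2 higher. *AT1G52100*, which has jacalin-type lectin domains that bind sugars, was 0.74 log2 higher, and *AT2G03550*, of the carboxylesterase family, 0.72 log2 higher. *AT2G02780*, a leucine-rich repeat receptor-like kinase, was 0.58 ± 0.08 log2 higher, at 6.62, 6.57 and 6.51 log2 in arf2-6_control and 6.04, 5.91 and 6.02 log2 in WT_control, and its IAA difference was 0.10 log2.

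**Figure D4:**
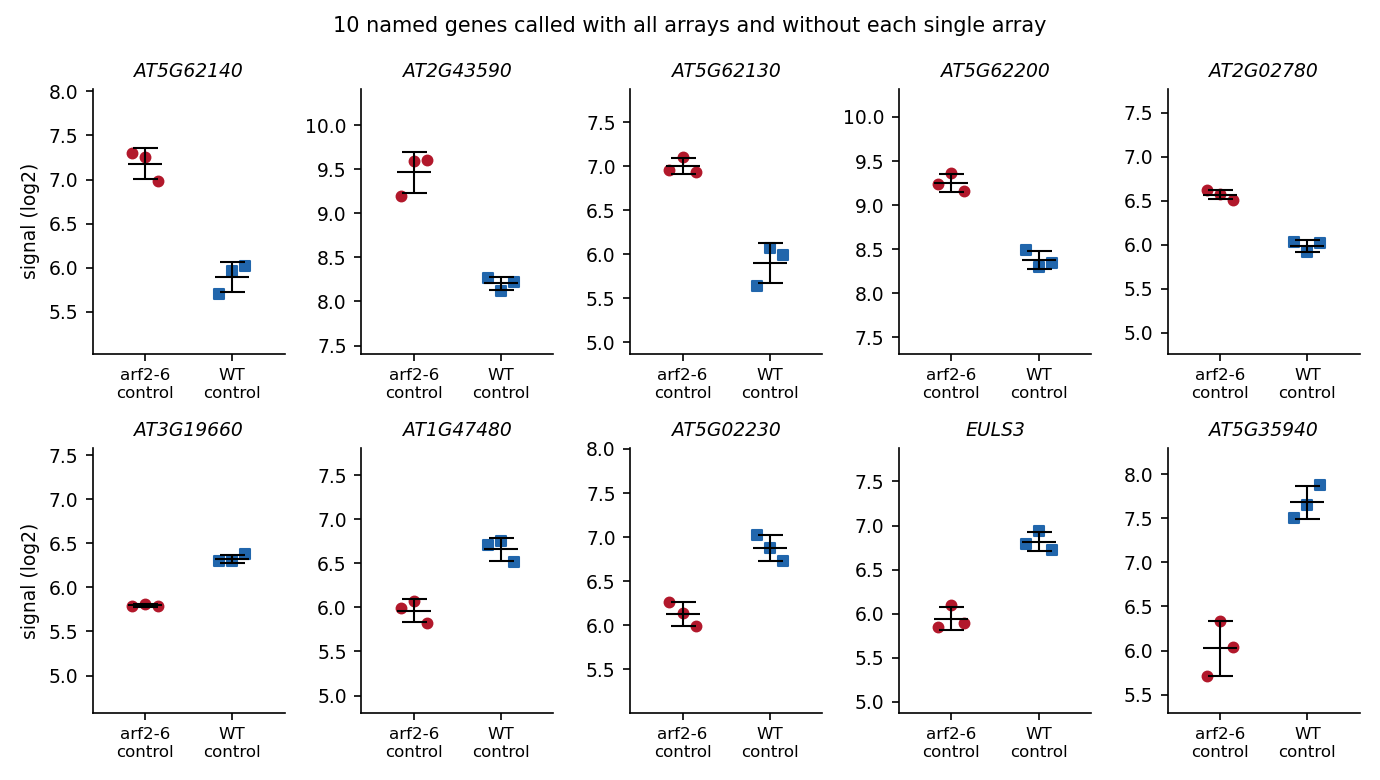
Log2 signal of 10 named genes on the 3 arf2-6_control arrays (circles, left) and the 3 WT_control arrays (squares, right) of each panel, with the mean and SD as bars; all panels span 3 log2 units. These genes were called in the fit with 12 arrays and in each of the 12 fits that left out 1 array, 5 higher and 5 lower in arf2-6_control. In every panel the groups do not overlap, as for all 122 called members.

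Some of the risers encode plastid proteins, which the nucleus supplies to the chloroplast. *PORB*, one of the light-dependent protochlorophyllide oxidoreductases of chlorophyll synthesis, was at 11.19, 11.34 and 11.59 log2 in arf2-6_control and 10.66, 10.50 and 10.89 log2 in WT_control (0.70 ± 0.13 log2, adjusted p = 0.0409). *AT5G24490*, known as a 30S ribosomal protein-like protein, was 0.75 ± 0.15 log2 higher (adjusted p = 0.0461). *AT4G29750*, with CRM domains that bind RNA, was 0.63 log2 higher. *AT3G04550*, of the Rubisco accumulation factor family, was 0.59 log2 higher, and *MAP1C*, a methionine aminopeptidase that removes the starting methionine, 0.57 log2 higher. All of these had arf2-6_control values above every WT_control value, as the rule that named them required. In the 12 fits that left out 1 array, *PORB* was called in 4 and each of the others in 3.

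The chloroplast-encoded genes were nearly all higher in *arf2-6*, and they are described without a test of the set. Of 68 member probe sets, 67 were higher in *arf2-6*, with a median difference of 0.49 log2, against 0.02 log2 over all members, of which 55.1% were positive. None of the 68 was called with 12 arrays, where 0.352% of all probe sets rose. Without the pair 6 were called higher (2.69% of all probe sets fitted) and 67 were positive, with a median of 0.65 log2, against 0.05 log2 and 58.2% positive over all members. By complex, the median difference with 12 arrays was 0.82 log2 for 5 photosystem I genes, 0.34 log2 for 15 photosystem II genes, 0.35 log2 for 6 cytochrome b6f genes, 0.60 log2 for 6 ATP synthase genes and 0.60 log2 for 9 genes of the NDH complex. It was 0.42 log2 for 15 genes of the plastid ribosome and 0.69 log2 for 4 genes of the plastid RNA polymerase. The genes of this list sit on one small genome with shared transcripts, so they are not independent measurements.

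*psaC*, a photosystem I subunit that carries iron-sulfur clusters, was at 8.64, 8.88 and 9.22 log2 in arf2-6_control and 7.29, 8.02 and 8.21 log2 in WT_control. The groups did not overlap, and the difference was 1.07 ± 0.24 log2 (adjusted p = 0.0636) with 12 arrays and 1.28 ± 0.28 log2 (adjusted p = 0.033) without the pair. *petG*, a small subunit of the cytochrome b6f complex, read 8.67, 7.34 and 9.0 log2 in arf2-6_control and 6.31, 6.62 and 7.25 log2 in WT_control, a difference of 1.61 ± 0.47 log2 (adjusted p = 0.133) with 12 arrays. Array 2 of arf2-6_control was lower and array 3 of WT_control higher than the others of their groups, and without them the difference was 2.37 ± 0.44 log2 (adjusted p = 0.0213). *ndhH*, of the plastid NAD(P)H dehydrogenase, was at 6.89, 5.68 and 7.52 log2 in arf2-6_control and at 5.74 log2 on WT_control array 2 and the lowest value on the other 2. The high values came from 2 arf2-6_control arrays and the groups overlapped, and the difference was 1.02 ± 0.38 log2 (adjusted p = 0.22) with 12 arrays and 1.51 ± 0.29 log2 (adjusted p = 0.0241) without the pair. *cemA*, *rpl22* and *rpl36* were the other calls without the pair, at 0.93, 0.89 and 0.83 log2.

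Genes that build the pigment and RNA of plastids were added after values had been seen, so their counts are descriptions only, to be read beside 55.1% positive members and 0.352% of probe sets called higher with 12 arrays, and 58.2% and 2.69% without the pair. All 9 tetrapyrrole synthesis members, enzymes of the route to chlorophyll and heme, were higher, with a median of 0.31 log2 with 12 arrays and 0.47 log2 without the pair. *PORB* was called with 12 arrays, and *CHLI2*, a magnesium chelatase subunit, with *HEME1* and *HEME2*, which decarboxylate uroporphyrinogen, were called without the pair. All 11 members for plastid RNA maturation, such as proteins for splicing and editing of chloroplast transcripts, were higher, with a median of 0.39 log2 with 12 arrays and 0.63 log2 without the pair. *CFM3A*, with CRM domains, read 7.96, 7.62 and 7.56 log2 in arf2-6_control and 6.76, 6.48 and 7.48 log2 in WT_control, and WT_control array 3 was close to the arf2-6_control values. Its difference was 0.80 ± 0.23 log2 (adjusted p = 0.123) with 12 arrays and 1.14 ± 0.19 log2 (adjusted p = 0.0155) without the pair. *RH39*, *RAP* and *OTP84* were the other 3 called without the pair. Nuclear genes for photosynthesis, as a list of 8, had a median of 0.09 log2 with 12 arrays (0.02 to 0.39) and none was called. All 8 were positive with 12 arrays and 7 without the pair, where the median was 0.06 log2. *PSAN* was at 11.91, 11.79 and 11.99 log2 in arf2-6_control and 11.75, 11.76 and 11.76 log2 in WT_control, a difference of 0.14 log2 without overlap. *RCA*, which encodes Rubisco activase, was at 12.52, 12.28 and 12.56 log2 in arf2-6_control and 12.50, 12.45 and 12.34 log2 in WT_control.

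The 4 markers of leaf mesophyll showed summed levels of 14349 to 16183 in arf2-6_control and 13484 to 16257 in WT_control, in linear signal units, with all 4 above the lowest value. *PYK10*, the single measured marker of root tissue, summed to 4855, 5690 and 5998 in arf2-6_control and 5275, 5963 and 5599 in WT_control. The 2 measured guard cell markers summed to 179 to 245 in arf2-6_control and 178 to 243 in WT_control. The ranges of the groups overlapped for all 3 lists. Of the pollen markers 1 of 3 was a member and 2 never exceeded the lowest value on the 6 arrays, nor did the 1 seed marker. Their part in the plastid gene differences was not tested.

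Among the single-gene members called lower with 12 arrays, the 3 largest falls were of a jacalin-type lectin gene, a relative of cinnamyl alcohol dehydrogenase and a MATE transporter. *AT5G35940*, with jacalin-type lectin domains, was at 5.71, 6.33 and 6.04 log2 in arf2-6_control and 7.50, 7.66 and 7.88 log2 in WT_control. The difference was -1.65 ± 0.15 log2 (3.14-fold lower, adjusted p = 0.000833), with no overlap. *AT1G66800*, related to cinnamyl alcohol dehydrogenase, read 5.80, 6.88 and 6.61 log2 in arf2-6_control and 7.97, 7.80 and 7.93 log2 in WT_control (-1.47 ± 0.25 log2, adjusted p = 0.0265). *AT5G38030*, a MATE transporter of small molecules, read 6.48, 6.43 and 6.42 log2 in arf2-6_control and 7.87, 7.89 and 7.20 log2 in WT_control (-1.21 ± 0.19 log2, adjusted p = 0.0202). These 3 genes were also lower on the IAA arrays, at -1.36, -1.78 and -1.78 log2. In all 26 single-gene members were called lower with 12 arrays and 147 without the pair.

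Enzymes of secondary and cell-wall metabolism were among the other falls. *GSTU26*, a glutathione transferase, fell by 0.94 log2 (adjusted p = 0.0217). *AT3G29410*, of the terpene synthase family, and *AT1G19900*, related to glyoxal oxidase, each fell by 0.92 log2. *EULS3*, a lectin, was at 5.84, 6.09 and 5.89 log2 in arf2-6_control and 6.79, 6.94 and 6.73 log2 in WT_control (-0.87 ± 0.11 log2, adjusted p = 0.00528). *TBL41*, of the family that acetylates wall polysaccharides, fell by 0.85 log2, and *AT4G25250*, a pectin methylesterase inhibitor, fell by 0.79 log2. *AT5G02230*, a haloacid dehalogenase-like hydrolase, fell by 0.75 log2, and *SBT4.12*, a subtilase, fell by 0.67 log2. *AT1G72140*, a member of the nitrate and peptide transporter family, had no arf2-6_control array above the lowest value and read 6.09, 6.53 and 6.19 log2 in WT_control, so it was at least 1.55-fold lower (adjusted p = 0.0378). *AT4G25250* was at the lowest value on all 6 IAA arrays, so the IAA arrays give no measured difference for it. *GSTU26*, *AT3G29410*, *AT1G19900* and *AT1G72140* were at the lowest value on all 3 arf2-6_IAA arrays. Their differences on the IAA arrays, -1.08, -0.94, -0.22 and -0.39 log2, are therefore bounds.

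Several falls called only without the pair were root-hair-related or peroxidase genes. *EXPA18* and *EXPA7* encode expansins, proteins that loosen walls, and both are known from root hair cells. *EXPA18* was at 6.39, 6.82 and 6.61 log2 in arf2-6_control and 7.77, 7.75 and 6.99 log2 in WT_control, so WT_control array 3 lay nearest to the arf2-6_control arrays. The difference was -0.90 ± 0.25 log2 with 12 arrays (adjusted p = 0.12) and -1.26 ± 0.25 log2 without the pair (adjusted p = 0.0261). *EXPA7* was -0.66 log2 with 12 arrays and -0.94 log2 without the pair. Of 12 expansin members, 4 were called lower without the pair (2.37% of all probe sets fitted) and none with 12 arrays (0.507%), and the median difference was -0.02 log2, near that of all members. The sum of these 2 root hair markers was 152, 199 and 180 in arf2-6_control and 356, 365 and 219 in WT_control, in linear units. The groups did not overlap, and WT_control array 3 was the lowest of its group. The part of the root hair markers in the other falls was not tested.

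Class III peroxidases, wall enzymes with heme, were also picked with values seen, and are given as a description. Of 34 members, 27 were lower in *arf2-6*, with a median of -0.29 log2 with 12 arrays and -0.39 log2 without the pair, while 55.1% of all members were positive with 12 arrays. None was called with 12 arrays (0.507% of all probe sets fitted fell), and 7 were called lower without the pair (2.37%). *AT1G34510* was at 5.81, 6.29 and 6.08 log2 in arf2-6_control and 7.78, 8.08 and 6.83 log2 in WT_control. Its difference was -1.51 ± 0.33 log2 (adjusted p = 0.0598) with 12 arrays and -1.99 ± 0.31 log2 (adjusted p = 0.0137) without the pair. It was at the lowest value on all 3 arf2-6_IAA arrays. *AT1G30870*, *AT5G64120*, *AT4G26010*, *AT2G39040*, *AT3G49960* and *AT5G17820* were the other calls, at -1.06, -1.16, -1.0, -0.96, -0.83 and -0.78 log2. *XTH26*, which remodels xyloglucan in walls, was -1.08 ± 0.20 log2 without the pair.

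Other falls without the pair included *AT5G47980* and *AT5G47950*, BAHD acyltransferases, at -1.79 and -1.13 log2, and *AT1G14960*, of the major latex protein-like family, at -1.87 log2. *AT5G47980* was at 7.22, 6.38 and 7.24 log2 in arf2-6_control and 8.92, 9.12 and 7.40 log2 in WT_control, and WT_control array 3 was close to the arf2-6_control arrays. *AT1G14960* was at 7.83, 8.77 and 8.24 log2 in arf2-6_control and at 9.54 log2 or more on every WT_control array, with no overlap. It was -2.24 log2 on the IAA arrays.

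**Figure D5:**
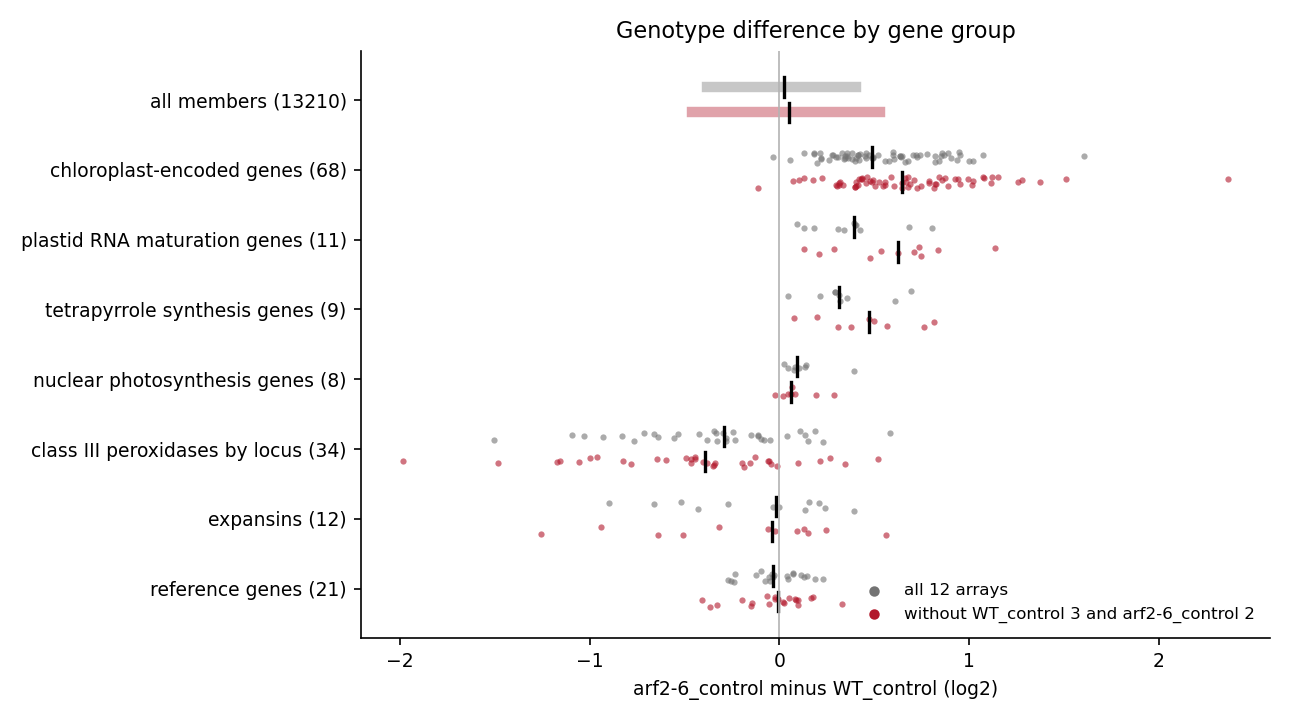
Difference of arf2-6_control from WT_control (x axis, log2) for gene groups, with the number of member probe sets in parentheses; grey is the fit with 12 arrays and red the fit without arf2-6_control array 2 and WT_control array 3. Points are members, black ticks are medians, and for all 13210 members the bar runs from percentile 5 to percentile 95. The chloroplast-encoded genes have medians of 0.49 and 0.65 log2, and the class III peroxidases -0.29 and -0.39 log2.

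Calls in other gene families stand beside shares of 0.858% of all probe sets fitted with 12 arrays and 5.06% without the pair. *GSTU26* was 1 of 10 glutathione transferase members called with 12 arrays, and *GSTU28* joined it without the pair (-0.57 log2), with a family median of -0.08 log2. *EULS3* was the 1 call among the 4 members of the lectin list. That list did not hold the jacalin-type genes *AT5G35940* and *AT1G52100*, which were called lower and higher with 12 arrays. *TBL41* was the 1 call among 15 members of its family, whose median was -0.08 log2. Of 12 cytochrome P450 members, *CYP71B23* (-0.77 log2) and *CYP718* (-0.49 log2) fell without the pair and none was called with 12 arrays. Among 8 members of the cellulose synthase family, which also make wall glucans, *ATCSLC08* (0.58 log2) and *CSLC5* (0.56 log2) rose without the pair. *BCAT4*, an aminotransferase that starts the synthesis of glucosinolates from methionine, fell by 0.51 log2 without the pair as the 1 call among 11 glucosinolate members. None of 25 UDP-glycosyltransferase members was called in either fit.

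Genes of the auxin pathway itself were little represented and none was called in either fit. Of 7 single-gene probe sets listed for Aux/IAA repressors, 5 were at the lowest value on all 6 control arrays and only *IAA18* was a member. *IAA18* was at 7.77, 7.72 and 7.76 log2 in arf2-6_control and 7.12, 7.31 and 7.42 log2 in WT_control, a difference of 0.47 ± 0.15 log2 (adjusted p = 0.173). All 3 measured members of the GH3 family, which conjugate auxin and other acids to amino acids, had negative values, and *GH3.17* was lowest at -0.35 log2 (adjusted p = 0.392). *LBD16*, a lateral root regulator, was at 5.72 log2 on arf2-6_control array 3 and the lowest value on the other 2, against 5.96, 5.83 and 5.90 log2 in WT_control (-0.23 log2, adjusted p = 0.376). *YUC6*, a flavin monooxygenase of auxin synthesis, was at -0.19 log2. *GID1A*, a gibberellin receptor, was at 0.47 log2, and *RTE1*, of ethylene signalling, at -0.02 log2. The list of 21 reference genes had a median of -0.03 log2 and no calls. Of 4 cell cycle members none was called.

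Probe sets that were not listed with a gene gave the largest called differences. Probe set 247508_at was at 10.24, 9.90 and 10.50 log2 in arf2-6_control and 8.21, 8.28 and 6.54 log2 in WT_control (2.54 ± 0.36 log2, adjusted p = 0.0123). Its WT_control array 3 was the lowest of the group, and without the pair the difference was 2.13 log2. Probe set 249205_at was at 6.04, 7.06 and 7.66 log2 in arf2-6_control and 9.28, 9.62 and 9.21 log2 in WT_control (-2.45 ± 0.31 log2, adjusted p = 0.00608). Without the pair its difference was -2.60 log2. Probe set 247468_at had no arf2-6_control array above the lowest value and was at 8.44, 7.95 and 7.80 log2 in WT_control, so it was at least 5.34-fold lower (adjusted p = 0.000114). Without the pair its difference was -2.55 log2, also a bound. In all, 38 of the 13210 members had no arf2-6_control array above the lowest value and 18 had no WT_control array above it. These passed the filter only through the other genotype, so their lack of overlap was fixed by the filter. That holds for 247468_at and for *AT1G72140*. Of the 122 calls, 65 were of probe sets with no gene or several genes.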

How the data were processed

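Whole-seedling total RNA was hybridised to 12 one-colour arrays, and the log2 signals used here are those deposited by the authors, 1 value per probe set and array. Their summarisation and scaling before deposit are not stated. The lowest value was 5.6438562 log2 (a signal of 50), so a level at it is a bound. The 6 control arrays had medians of 6.16 to 6.22 log2 and 42.5 to 43.1% of probe sets at the lowest value, and the number of arrays limits the precision. The labels gave the groups and the replicate numbers.

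From these values, limma 3.58.1 (R 4.3.3, statmod 1.5.0) fitted a mean for each of 4 groups over 12 arrays (8 residual degrees of freedom), with a variance trend. Control probe sets and those at the lowest value on all 12 arrays were left out, which left 14215. Tests were two-sided, with Benjamini-Hochberg adjustment over all probe sets fitted and a call at 0.05. The fit was repeated without arf2-6_control array 2 and WT_control array 3 (6 residual degrees of freedom). Python 3.11.15 was used for tables and plots.

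The platform annotation paired 13513 probe sets with exactly 1 gene, and 13436 of these matched a gene table of assembly TAIR10.1, used only for names and gene order. Named were, among single-gene members without overlap between genotypes, the 20 largest rises and falls called in each fit, up to 4 called members of each list or 1 value, called genes beside *ARF2*, unlisted probe sets of the largest difference, and the largest shared deviations of the 2 arrays. Gene roles are background knowledge, not values of the files. The members, the pair of arrays and the 62 lists were chosen with earlier results of these data known. After values were seen, 3 lists were added, that of plastid RNA maturation was then narrowed by function, and 4 chloroplast-encoded genes were taken out of the nuclear photosynthesis list.

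Same-numbered control arrays deviated from their group means with correlations of 0.371, -0.409 and -0.500, so the replicate numbers were not taken to pair the samples.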

Additional observations from a re-analysis of the deposited data

How the results depend on the processing

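The number of calls depended strongly on the settings. All 122 called differences kept their sign in every alternative that fitted them. Their control values did not overlap between genotypes, so leaving out arrays could not reverse a sign, and this is no separate support. The count of 122 (50 higher, 72 lower) was 713 (379 and 334) without arf2-6_control array 2 and WT_control array 3, 2 (1 and 1) on the 6 control arrays alone and 63 (18 and 45) on those arrays without the pair. Leaving out each single array gave 24 to 517 calls, with 12 to 274 higher and 12 to 243 lower. It was 517 without arf2-6_control array 2 and 456 without WT_control array 3, and 26, 24, 30 and 44 without arf2-6_control array 1 or 3 or WT_control array 1 or 2. Without single IAA arrays it was lowest at 61 (arf2-6_IAA array 3), 72 (WT_IAA array 1) and 79 (arf2-6_IAA array 2). Of the 122, 18 were called in all 12 of these fits. The replicate block gave 235 calls (75 and 160), with 113 shared with the 122, and the numbers do not pair the samples. No filter gave 30 (13 and 17), members only 191 (76 and 115), and array weights 479 (213 and 266). The other settings were within 1.5 times: median centring gave 164, quantile normalization 129, the lowest value raised to 6 128, no variance trend 91 and members above the lowest value on all 6 control arrays 170. The causes were not tested.

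Of the members, 1149 were called in the IAA comparison, 2057 without the pair, 572 with no filter and 2964 with array weights, and 280 to 1459 without a single array. The interaction called 0 members, 2 without the pair, 1 with no filter, 10 with the lowest value raised to 6, and 0 to 2 without a single array.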

Other observations

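The 2 members called for a difference between the genotype differences in the fit without the pair of arrays were probe set 253411_at and *AT3G15720*. Both lay at or just above the lowest value on the remaining WT_control arrays and at it on all IAA arrays. *AT3G15720* was at 6.32, 6.84 and 6.40 log2 in arf2-6_control and at 6.27 log2 on WT_control array 3 and the lowest value on the other 2.

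*STOMAGEN*, which encodes a secreted peptide that raises stomatal density, was at 7.37, 7.51 and 7.52 log2 in arf2-6_control and 6.54, 6.21 and 7.29 log2 in WT_control. Its difference was 0.78 ± 0.23 log2 (limma adjusted p = 0.134) with 12 arrays and 1.07 ± 0.18 log2 (adjusted p = 0.0166) without the pair.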
